A study of Rattus norvegicus with 176 samples.

Results

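Slc25a4 and Slc25a5, the ADP/ATP translocases ANT1 and ANT2, were followed with Slc25a20, the carnitine/acylcarnitine carrier, and Slc25a1, the citrate carrier, across rat liver sections from a study of clofibric acid (CA). The 4 genes, of 10411 named on the array, were taken by its annotation, and each had 1 of the 15922 probe sets, none of them shared with a further gene. The sharpest pattern was in sections that the labels tag TU: Slc25a4 had the largest rise of 11566 tested probe sets in TU sections of DEN-CA rats, 13.7-fold over the untagged section of the same rat, and its sister Slc25a5 was called neither there nor in TU sections of CA rats. In untagged liver, Slc25a20 rose most at 5j and 1m under CA, Slc25a5 and Slc25a4 rose on the mean over times, and Slc25a1 was called in no comparison.

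The SLC25 carriers sit in the inner mitochondrial membrane and move metabolites that it does not let through. The translocases bring ADP into the matrix for ATP synthase and carry ATP out. ANT1 is the form of heart and skeletal muscle, and ANT2 is found in many tissues including liver and in dividing cells. The Slc25a20 product takes acylcarnitines into the matrix for β-oxidation, a route that fibrates induce in rodent liver through PPARα, and the Slc25a1 product exports citrate for fatty acid synthesis.

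By the RefSeq annotation of GRCr8, Slc25a4 (probe set 1388112_at) lies at chr16:52805521-52809316, Slc25a5 (1388163_at) at chrX:120897616-120900683, Slc25a20 (1398249_at) at chr8:118243573-118265027 and Slc25a1 (1367773_at) at chr11:96560054-96563071, all on the plus strand. Each probe set hybridises with target made from the gene's transcript. Slc25a4 and Slc25a5 are close in sequence, and cross-hybridization between them was not tested. All 4 probe sets passed the filter on dim signals.

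The labels describe liver of F344 rats, an inbred strain, and give no age, sex or route. CA groups received clofibric acid, a fibrate that activates PPARα, at 5000 ppm. DEN-CA groups carry both abbreviations and DEN groups only the first, which in this field stands for diethylnitrosamine, a carcinogen that alkylates DNA. Control groups carry neither, except that the controls labelled -8 are named CtrlDEN, which the labels do not explain. These were taken as the controls of the DEN group labelled -8. The dose and timing of DEN are not in the labels, and every title names 5000 ppm CA, controls included, so groups were taken from the group names. CA and control livers were taken at 5j, 1m, 3m, 9m, 12m and 18m, DEN-CA and DEN livers at the first 5 of these, with 5 rats in each group, and a pair of DEN and control groups was labelled -8. Further groups were CA 18mrev (4 rats), DEN-CA 12mrev (5), a DEN group labelled 12rev (6), control 18mrev (3) and 12mrev (4), and a CA group labelled 18 with no unit (6). The labels explain neither j nor rev. One array was hybridized for each of 148 untagged sections, 23 sections tagged TU from 16 of the same rats (9 CA, 7 DEN-CA) and 5 tagged PERI from 5 rats. TU and PERI are not spelled out either. Hepatocyte markers led the arrays, with albumin above the 99th percentile of the median untagged section.

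The stretch around each start site is shown for both translocases and for Slc25a20, because the sisters differed most in TU sections and Slc25a20 rose early under the fibrate. Each runs from 250 bases before the annotated start to 30 bases after it, 5′ to 3′ on the plus strand, from RefSeq's GRCr8 (all 4 members matched). In the translocases the capitals mark ATATAAG, which resembles the core promoter element known as the TATA box, and in Slc25a20 the best match to AGGTCANAGGTCA, the direct repeat that PPARα and its partner RXR can bind.
Slc25a4, chr16:52805271-52805550: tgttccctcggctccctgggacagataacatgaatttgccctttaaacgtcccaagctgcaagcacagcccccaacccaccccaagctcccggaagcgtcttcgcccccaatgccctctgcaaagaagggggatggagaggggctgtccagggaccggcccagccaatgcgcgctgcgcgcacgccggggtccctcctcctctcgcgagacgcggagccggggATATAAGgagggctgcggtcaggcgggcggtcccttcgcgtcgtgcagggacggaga
Slc25a5, chrX:120897366-120897645: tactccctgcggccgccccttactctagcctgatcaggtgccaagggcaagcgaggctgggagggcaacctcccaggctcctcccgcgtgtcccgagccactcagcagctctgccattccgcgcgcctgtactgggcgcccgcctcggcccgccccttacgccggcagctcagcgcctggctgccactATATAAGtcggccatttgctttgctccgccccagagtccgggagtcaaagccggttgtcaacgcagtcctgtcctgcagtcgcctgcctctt
Slc25a20, chr8:118243323-118243602: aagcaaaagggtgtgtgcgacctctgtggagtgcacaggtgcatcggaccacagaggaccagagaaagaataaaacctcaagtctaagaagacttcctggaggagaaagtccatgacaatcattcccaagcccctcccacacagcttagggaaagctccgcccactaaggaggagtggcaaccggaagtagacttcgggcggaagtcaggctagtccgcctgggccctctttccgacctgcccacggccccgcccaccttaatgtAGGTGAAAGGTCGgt

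ATATAAG stood 27 to 21 bases before the Slc25a4 start and 62 to 56 bases before that of Slc25a5, and 2.88% of 33469 rat promoter windows of this length hold it on either strand. The direct repeat, with up to 2 mismatches in its 12 fixed letters on either strand, was found in Slc25a20 with 10 letters matched at bases 16 to 28 of the transcript, in none of the other members, and in 3.52% of windows. GC boxes (GGGCGG or its complement) were in all 4 members and in 32.2% of windows. A match is a description of letters and not of a bound site.

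Sections of 3 CA rats stood apart in Slc25a4 and bear on the results that follow. Signals are MAS5 intensities scaled to a common array median. Slc25a4 was above 1000 in 21 of 23 TU sections (1156 to 4968), in none of 5 PERI sections (151 to 544) and in 2 of 148 untagged sections. All other untagged sections lay between 50.3 and 487. The 2 TU sections below 1000 were the only one of rat 4137 (130.4) and the one tagged tuga of rat 4142 (220.3), whose section tagged tumi had 3144. The 2 untagged sections above it were those of rat 4137 (CA 12m, 3356) and rat 4150 (CA 18m, 3600.0). A further measure was the median log2 signal of the 50 genes that rose most in TU sections of DEN-CA rats. In rat 4137 it was 6.84 in the TU, 6.89 in the PERI and 8.87 in the untagged section, whereas 12 other TU sections of CA rats had 7.21 to 9.18 and 38 other untagged ones 6.66 to 7.52. Rat 4150 had 8.13 in the TU and 7.26 in the untagged section, and the tuga section of rat 4142 had 7.11. By this median the library labelled TU of rat 4137 was at the untagged level and the one labelled without a tag at the TU level, while the untagged library of rat 4150 was high in Slc25a4 with a 50-gene median of 7.26, where the ranges of TU and untagged sections overlap. Results that rest on these libraries are given with and without rats 4137 and 4150. Exceptions are the limma test of PERI sections, where values per rat are given, and a closing ranking of genes by their TU differences. As the pair was picked by its Slc25a4 values, adjusted p-values without it are a description.

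Slc25a4 rose in TU sections of both arms. In the DEN-CA rats, the TU signals were 3018, 3328 and 3174 (9m rats), 3814, 1668 and 2734 (12m rats) and 3631 and 3143 (both of 1 rat of 12mrev), against 136 to 307 (median 176) in the untagged sections of the same 7 rats. Every TU section of DEN-CA rats was above every untagged one, and rat 4107 had both the lowest TU signal (1668) and the highest untagged one (307). The difference, with TU sections of a rat averaged, was 3.78 ± 0.70 on the log2 scale (SE, n = 7 rats, adjusted p = 0.000828 by limma), 13.7-fold, where 29.6% of 11566 probe sets were called and Slc25a4 was the only member among them. No probe set had a larger rise there. In bulk sections, more cells that express a gene and more of its RNA per cell cannot be told apart. Without rats 4137 and 4150, which enter only through the shared estimate of spread, it was 3.78 ± 0.23, adjusted p = 7.47e-09, 2 members were called and so were 32.3% of probe sets.

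The CA rats split. Their 15 TU sections ran from 130 to 4968 (median 3107), and their 9 untagged sections from 86.6 to 3600 (median 209), so the ranges overlapped. Slc25a4 was higher in TU in 8 of 9 rats, and rat 4137 went the other way, with 130.4 in TU and 3356 untagged. Rat 4150 was high in both, with 3904 and 3600.0. Over all 9 rats the difference was 2.35 ± 0.62, adjusted p = 0.0449, the only member called beside 3.74% of probe sets. Without rats 4137 and 4150 the ranges no longer overlapped on rat means, the difference was 3.64 ± 0.23 (adjusted p = 7.31e-09, 12.5-fold, 7 of 7 rats), and 2 members and 18.7% of probe sets were called, Slc25a4 again with the largest rise. The call over all 9 rats was lost when any 1 of the 8 rats other than 4137 was left out (adjusted p up to 0.129), while leaving out rat 4137 gave 3.20 with an adjusted p of 1.83e-06. It was also lost with quantile normalization, with no filter, with CA rats alone in the fit, without rats of rev groups and with 1 TU section per rat (adjusted p 0.0590 to 0.127). Rat 4151 is the only CA rat of a rev group here, so leaving out rev groups and leaving out this rat keep the same CA rats. DEN-CA rats less CA rats, the difference was 1.43 ± 0.94, adjusted p = 0.471, and without rats 4137 and 4150 0.14 ± 0.33, adjusted p = 0.906. The CA rats with TU were of 12m, 18m, 18mrev and the group labelled 18, and the DEN-CA rats of 9m, 12m and 12mrev. Arm and time can therefore not be told apart in this contrast. No member was called in this contrast and neither was any probe set (0% with all rats and 0% without the pair, 1812 and 1375 at an unadjusted p under 0.05).

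PERI sections lacked the high Slc25a4 signal of most TU sections. Slc25a4 had 487 in PERI and 179 in the untagged section of rat 4142, 544 and 209 in rat 4143, 172 and 3356 in rat 4137, 363 and 186 in DEN-CA rat 4104, and 151 and 175 in DEN-CA rat 4109. The PERI signal was above the untagged one in 3 of 5 rats and below every TU signal except those of rat 4137 and of the tuga section of rat 4142. The mean difference was -0.16 ± 0.67, adjusted p = 0.998 by limma. That mean rests on rat 4137, which gave -4.10, while the other rats ran from -0.18 to 1.33. No member and no probe set was called over these 5 rats (0% of 10174), with 283 at an unadjusted p under 0.05 and none of them a member.

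**Figure D1:**
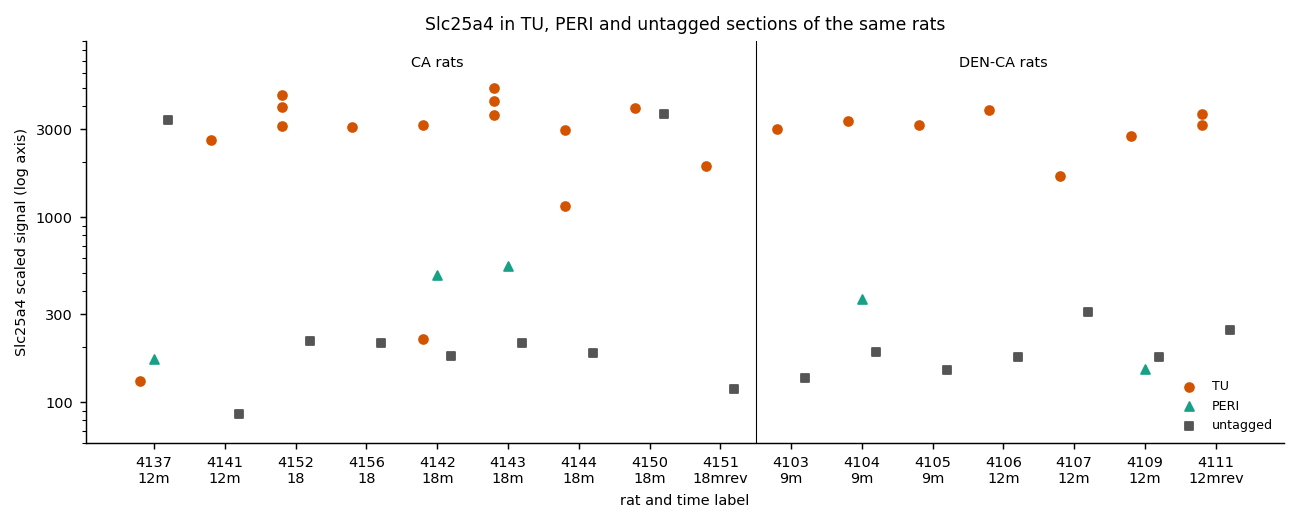
Slc25a4 scaled signal (log axis) in TU (circles), PERI (triangles) and untagged sections (squares) of the 16 rats with a TU section, each with its rat number and time label, CA rats left of the line and DEN-CA rats right of it. All DEN-CA rats and 7 of 9 CA rats have TU sections above 1000 with untagged sections of at most 307, and the untagged sections of rats 4137 and 4150 have 3356 and 3600.0.

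In untagged liver, Slc25a4 rose under CA on the mean of 6 times, by 0.65 ± 0.15 (adjusted p = 0.000203) with all rats and by 0.36 ± 0.09 (adjusted p = 0.000335, 1.29-fold) without rats 4137 and 4150. Both fits called 3 of the 4 members, beside 40.2% and 39.4% of probe sets. The signal was 104, 119, 136, 137 and 158 in CA livers against 133, 146, 108, 58.2 and 178 in control livers at 5j. It was 105, 278, 215, 220.5 and 134 in CA livers against 164, 166, 168, 104 and 108 in control livers at 1m. Both pairs of groups overlapped, though 3 CA livers were above every control at 1m. It was 137, 301, 259, 189 and 325 in CA livers against 109, 68.2, 106, 152 and 115 in control livers at 3m. At 3m 4 of 5 CA livers were above the highest control. The 3m difference was 0.96 ± 0.37, adjusted p = 0.0721 with all rats and 0.96 ± 0.21, adjusted p = 0.000388 without the pair, which lie in other groups and enter through the shared spread. With all rats it passed without CA rat 4127 (adjusted p = 0.0395), with quantile normalization (0.0427), with array weights (0.0431) and with the 3m groups alone in the fit (0.0130). At 9m it was 169, 75.9, 143, 144 and 149.6 in CA livers against 112, 111, 106, 96.6 and 75.4 in control livers, with 1 CA liver low among the controls and 4 above them all.

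At 12m the CA livers had 3356, 144, 133, 118 and 86.6 and the controls 88.8, 109, 111, 107 and 114, so that beside rat 4137 there were 3 CA livers above every control and 1 below them. At 18m they had 179, 209, 185, 134 and 3600.0 against 91.6, 115, 142, 281 and 106 in controls, and only rat 4150 stood above the control range. The differences of 1.05 ± 0.37, adjusted p = 0.0507, and 1.15 ± 0.37, adjusted p = 0.0429, became 0.14 ± 0.22, adjusted p = 0.8, and 0.31 ± 0.22, adjusted p = 0.519, without the pair. The 18m call was also lost without any 1 of control rats 4036, 4038, 4039 and 4045 (adjusted p 0.0659 to 0.104), without scaling (0.342), with no filter (0.0572) and with the 18m groups alone (0.374). The 12m difference passed without any 1 of CA rats 4138, 4139, 4140 and 4141 (adjusted p 0.0103 to 0.0297), each fit with rat 4137 in it, and with 4 other settings (0.0349 to 0.0454). Without the pair 1 member was called at 12m, beside 7.86% of probe sets, and none at 18m, beside 5.83%.

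Slc25a4 rose under the fibrate after DEN as well, by 0.50 ± 0.17 on the mean of 5 times (adjusted p = 0.012, 1.42-fold), 1 of 3 members called beside 35.1% of probe sets. At 3m the DEN-CA livers had 174, 219.8, 214, 146 and 206 against 56.8, 50.3, 119.8, 71.9 and 81.3 in DEN livers. The groups did not overlap, and the difference was 1.13 ± 0.37, adjusted p = 0.0281. That call was lost without any 1 of DEN rats 4063 and 4064 or DEN-CA rats 4096, 4097 and 4099 (adjusted p 0.0560 to 0.0799), with an offset of 99 (0.0996) and with the B suffix as a covariate (0.0562), and held at an adjusted p of 2.23e-05 without rats 4137 and 4150. At the other times it was 0.14 ± 0.37, adjusted p = 0.897 at 5j, 0.61 ± 0.37, adjusted p = 0.292 at 1m, 0.06 ± 0.37, adjusted p = 0.968 at 9m and 0.59 ± 0.37, adjusted p = 0.417 at 12m. Without rats 4137 and 4150 the 1m difference passed (adjusted p = 0.0325), and with the 12m groups alone in the fit so did that at 12m (0.0236). At 1m, 4 of 5 DEN-CA livers reached 218 to 265, a level that 1 DEN liver (219) shared.

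**Figure D2:**
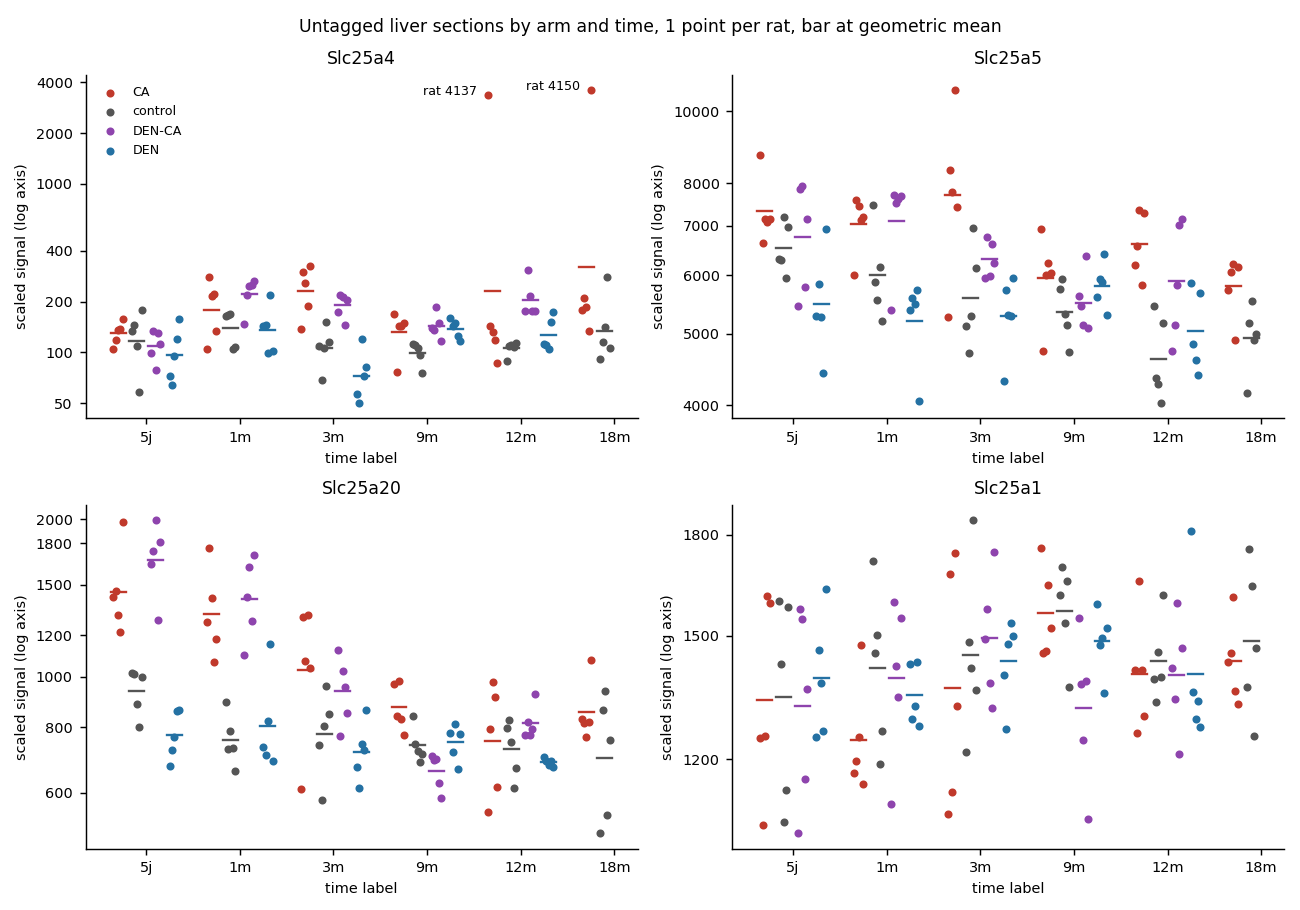
Scaled signal (log axis) of the 4 members in untagged liver by time label, 1 point per rat and a bar at the geometric mean, with CA, control, DEN-CA and DEN groups from left to right at each time. Slc25a20 lies farthest above its controls at 5j and 1m, and rats 4137 and 4150 stand at 3356 and 3600.0 in Slc25a4.

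Slc25a5 rose under CA by 0.29 ± 0.05 on the mean of 6 times (adjusted p = 3.07e-07, 1.22-fold) and after DEN by 0.23 ± 0.05 (adjusted p = 0.000296). Without scaling of the arrays the CA value was 0.068 (adjusted p = 0.580), where the median of all probe sets was itself at -0.18. At 3m the signal was 5278, 8319.9, 7784, 10686 and 7424 in CA livers against 5124, 4709, 5279, 6958 and 6145 in controls, with 4 of 5 CA livers above every control and 1 inside their range. This difference was 0.46 ± 0.12, adjusted p = 0.00377, with an adjusted p of 0.0569 without CA rat 4130 and 0.214 with the 3m groups alone, and it was -0.50 without scaling, where the median probe set was at -0.71. At 12m it was 6202, 6573, 7354, 5828 and 7279.8 in CA livers against 5452, 4352, 4283, 4036 and 5175 in controls, without overlap (0.51 ± 0.12, adjusted p = 0.00124). Without scaling it was 0.30 (adjusted p = 0.671), where the median probe set was at -0.17. The CA differences at 5j, 1m, 9m and 18m ran from 0.15 to 0.23 and did not pass, though after quantile normalization those at 1m, 9m and 18m did (0.15 to 0.29, adjusted p 1.73e-07 to 0.0112).

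After DEN, the 1m signal of Slc25a5 was 5379.6, 7700.2, 7508, 7604 and 7677 in DEN-CA livers against 5381, 5593, 5491, 5729 and 4059.8 in DEN livers. The lowest DEN-CA liver was inside the DEN range and the other 4 were above it, a difference of 0.45 ± 0.12, adjusted p = 0.00453 (0.0576 with the 1m groups alone). The other times gave 0.30 at 5j, 0.25 at 3m, -0.08 at 9m (0.18 with an adjusted p of 0.00289 after quantile normalization) and 0.22 at 12m, none of them called. After quantile normalization all 4 were (adjusted p 1.56e-06 to 0.00289). That at 5j also passed without DEN rat 4057 or DEN-CA rat 4085 (adjusted p 0.0367 and 0.0419). In control liver Slc25a5 was lower at 18m than at 5j, with 4159.8, 5176, 5536, 4905 and 4991 against 6322, 6287, 7195, 5956 and 6979. Control means were 4660 at 12m and 4954 at 18m, while the 3 control 18mrev livers had 4625 to 7213 (mean 6238). No 18m control reached the lowest 5j one, and the difference was -0.40 ± 0.12, adjusted p = 0.0244, lost without any 1 of rats 4036, 4040, 4010 and 4008 (adjusted p 0.0530 to 0.0910) and with these groups alone (0.0684), and 0.017 without scaling, where the median probe set was at 0.33. It was the only member called there, beside 7.22% of probe sets. Slc25a20 gave -0.41 ± 0.14, adjusted p = 0.0555 (0.0471 without rats 4137 and 4150, and 0.0173 to 0.0448 without rat 4038, 4039 or 4009), Slc25a4 0.17 ± 0.37, adjusted p = 0.861 and Slc25a1 0.14 ± 0.12, adjusted p = 0.529.

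In TU sections Slc25a5 had 4778 to 7415 (median 5654) on rat means in CA rats against 5737 to 7844 (median 6223) in their untagged sections, and 5122 to 7850.4 (median 5903) in DEN-CA rats against 3579 to 7025 (median 5145) in their untagged sections. It was lower in TU in 9 of 9 CA rats, with a mean difference of -0.20 ± 0.09, adjusted p = 0.17, and higher in 7 of 7 DEN-CA rats with 0.24 ± 0.10, adjusted p = 0.0705. The CA rats spanned -0.49 to -0.01 and the DEN-CA rats 0.0038 to 0.61, so the arms did not overlap. These rats also differ in time label between arms, with only 12m in both, so arm and time cannot be told apart. The difference between arms was 0.44 ± 0.13, adjusted p = 0.19 over all probe sets (unadjusted p = 0.00278). The DEN-CA value passed with quantile normalization (0.29, adjusted p = 0.00436), with array weights (0.0423), with the filter at the 70th percentile (0.0453) and without rat 4107 (0.0477).

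Whether the sisters moved together was asked with the log2 signal of Slc25a4 less that of Slc25a5 within each array. Since brightness differs between probe sets, only changes in this value between groups carry meaning. In TU sections it was above the untagged value in 7 of 7 DEN-CA rats, by 3.54 on average with rats between 2.35 and 4.18 (exact sign-flip test, two-sided, p = 0.0156, the smallest that 7 rats allow). In CA rats it was above in 8 of 9, by 2.56 on average (exact p = 0.0430), and without rats 4137 and 4150 in 7 of 7, by 3.87 (exact p = 0.0156). Over all 30 such tests, with Benjamini-Hochberg adjustment, none passed 0.05 and 6 had an unadjusted p under it. The adjusted values of the TU tests were 0.119 for DEN-CA and 0.212 for CA rats.

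Among untagged livers, the value for DEN-CA livers at 3m was 0.88 above that for DEN livers (exact permutation test, two-sided, p = 0.0159, adjusted p = 0.119), and on the mean of 5 times 0.28 (permutation within times, p = 0.0102, adjusted p = 0.119). The lowest p of the family was for DEN-CA 12mrev against DEN 12rev, where all 5 livers of the first group lay above all 6 of the second, by 0.60 (exact p = 0.00216, the smallest these groups allow, adjusted p = 0.0649). For CA against control the mean of 6 times was 0.36 (permutation p = 0.0964, adjusted p = 0.241), and 0.07 without rats 4137 and 4150 (permutation p = 0.445, adjusted p = 0.637). At 12m that value was 0.53 with all rats and -0.40 without rat 4137, neither of them past an exact p of 0.05 (0.968 and 0.0635).

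**Figure D3:**
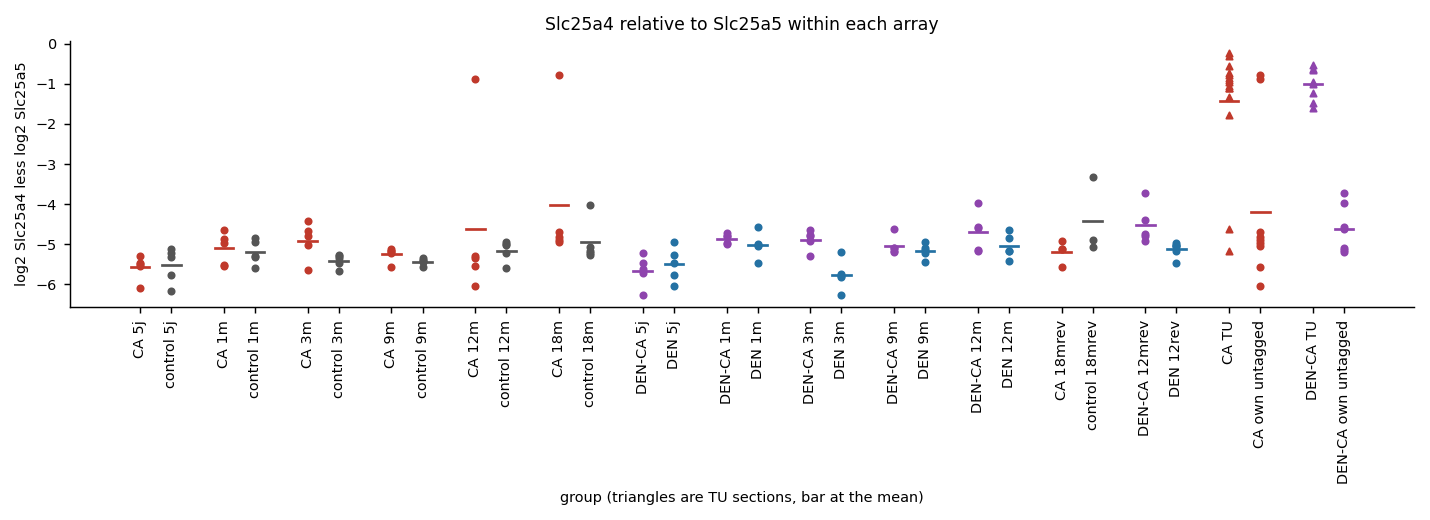
Log2 signal of Slc25a4 less that of Slc25a5 within each array, 1 point per section and a bar at the mean, with each treated group left of its control and, at the right, TU sections (triangles) beside the untagged sections of the same rats. TU values lie between -1.78 and -0.23 apart from 1 section each of rats 4137 and 4142, and untagged values at or below -3.31 apart from rats 4137 and 4150.

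Slc25a20 rose early under the fibrate and its difference was smaller at the later times labelled in months. At 5j it had 1419, 1457, 1313, 1219.7 and 1974 in CA livers against 1017, 1013, 886, 802 and 1001 in controls. After DEN it had 1646, 1737, 1991, 1281 and 1813 in DEN-CA livers against 676, 725, 767, 860.3 and 865 in DEN livers. Neither pair of groups overlapped. The 5j differences were 0.62 ± 0.14, adjusted p = 0.000843, 1.53-fold, and 1.09 ± 0.14, adjusted p = 6.91e-10, 2.13-fold. Without scaling they were 0.23 (adjusted p = 0.621) and 0.81 (adjusted p = 0.156), where the median probe set was at -0.33 and -0.21. At 1m the signals were 1272, 1767, 1417, 1069 and 1179 in CA livers against 894, 728, 787, 729.6 and 660.1 in controls (0.79 ± 0.14, adjusted p = 9.43e-06), again without overlap, and without scaling the difference was 0.84 (adjusted p = 0.165). After DEN they were 1101, 1419, 1618, 1279 and 1713 in DEN-CA livers against 733, 707, 824, 1156 and 690.4 in DEN livers (0.79 ± 0.14, adjusted p = 8.17e-06), where 1 DEN liver (1156) was above the lowest DEN-CA liver (1101).

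At 3m the values were 611, 1299, 1074, 1313 and 1039 in CA livers against 741, 581, 806, 959 and 848 in controls, with 1 CA liver among the controls. After DEN they were 1126, 771, 1024, 958 and 852 in DEN-CA livers against 673, 614, 744, 724 and 865 in DEN livers, with 1 DEN liver inside the DEN-CA range. The CA difference of 0.40 ± 0.14, adjusted p = 0.0426 was lost without any 1 of CA rats 4128, 4129, 4130 and 4131 or control rats 4016, 4017 and 4018 (adjusted p 0.0569 to 0.190) and with the 3m groups alone (0.332), and was -0.52 without scaling. After DEN it was 0.37 ± 0.14, adjusted p = 0.062, which passed without DEN rat 4067 or DEN-CA rat 4096 (0.0367 and 0.0357), with array weights (0.0289) and with the filter at the 70th percentile (0.0437). From 9m on no difference passed at the times labelled in months, while in CA livers labelled 18, with no unit, Slc25a20 was called against 18m controls, as given below. CA livers gave 0.24 ± 0.14 at 9m, 0.05 ± 0.14 at 12m and 0.28 ± 0.14 at 18m (0.35, adjusted p = 0.0260, after quantile normalization), and DEN-CA livers -0.18 ± 0.14 at 9m and 0.24 ± 0.14 at 12m. At 9m the DEN-CA livers had 706, 694, 698, 625 and 586 against 780.5, 717, 814, 666 and 777 in DEN livers, with overlap. At 12m they had 775, 821, 775, 794 and 929 against 703, 691, 677, 691 and 674 in DEN livers, where every DEN-CA liver was above every DEN liver by a small margin. The 12m DEN-CA effect less the 5j one was -0.85 ± 0.20, adjusted p = 0.00869, a contrast added after the values were seen, in which Slc25a20 was the only member called beside 0.888% of probe sets. The planned contrast in CA livers, 18m less 5j, was -0.34 ± 0.20, adjusted p = 0.607, with no member called beside 0.726% of probe sets.

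On the mean over times Slc25a20 rose by 0.39 ± 0.06 under CA (adjusted p = 4.61e-09) and by 0.46 ± 0.06 after DEN (adjusted p = 6.02e-10). Without scaling the CA value was 0.18 (adjusted p = 0.241). Some titles end in B, unexplained, in 46 untagged sections. Within sections that carry it the 5j difference was 0.69 ± 0.18 for CA livers (2 against 4 controls) and 0.93 ± 0.19 for DEN-CA livers (2 against 3 DEN). Without it the DEN-CA value was 1.28 ± 0.21 (3 against 2), and the CA value, 0.64 ± 0.27, rests on a lone control assumed to vary like the other groups. For Slc25a4 at 3m it was 0.90 ± 0.53 without the suffix for CA livers (4 against 3) and 0.94 ± 0.26 with it for DEN-CA livers (4 against 2), while the remaining subsets held 1 fibrate-treated liver each and are not given.

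Slc25a20 was lower in the TU sections of 8 of 9 CA rats (-0.93 to 0.44 per rat) and 5 of 7 DEN-CA rats (-1.53 to 0.05). The differences of -0.38 ± 0.14, adjusted p = 0.123 in CA rats, and -0.41 ± 0.16, adjusted p = 0.0606 in DEN-CA rats, did not pass, and without rats 4137 and 4150 both did, at -0.48 ± 0.15, adjusted p = 0.0262, and -0.41 ± 0.15, adjusted p = 0.0366. The lowest DEN-CA rat was 4107, where TU had 268 and the untagged section 821. Leaving it out gave the DEN-CA value nearest to 0, at -0.23 with an adjusted p of 0.243. The DEN-CA difference passed with 5 other settings, namely without rat 4109, without rat 4111, with array weights, with the filter at the 70th percentile and without rats of rev groups (adjusted p 0.0242 to 0.0458), and the CA difference with array weights (0.00460) and without rat 4137 (0.0125). Rat 4111 is the only DEN-CA rat of a rev group with TU sections, so leaving it out and leaving out rev groups keep the same DEN-CA rats.

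Slc25a1, whose product feeds cytosolic citrate to lipogenesis, kept within 1045 to 1847 over all 148 untagged sections and was not called in any comparison. At 1m, its largest difference under CA, it had 1171, 1196, 1248, 1475 and 1147 in CA livers against 1718, 1454, 1502, 1190.3 and 1263 in controls, which overlapped (-0.18 ± 0.12, adjusted p = 0.324). On the mean of 6 times the 95% interval of the CA difference was -0.15 to 0.03 on the log2 scale, and after DEN on the mean of 5 times -0.13 to 0.08. In TU sections it gave -0.17 ± 0.11, adjusted p = 0.385, in CA rats (3 of 9 higher), and 0.09 ± 0.12, adjusted p = 0.611, in DEN-CA rats (4 of 7 higher). With quantile normalization the DEN-CA value was 0.29 with an adjusted p of 0.0452. Without scaling the CA mean was -0.28 with an adjusted p of 0.0405 and that at 3m -1.01 (adjusted p = 0.00201), where the median probe set was at -0.18 and -0.71.

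Set against all probe sets, member calls under CA were all upward and numbered 6 in 24 tests at single times, with 8 at an unadjusted p under 0.05. At 5j 1 member was called (Slc25a20) beside 11.2% of probe sets, at 1m 1 (Slc25a20) beside 14.4%, at 3m 2 (Slc25a5, Slc25a20) beside 14.2%, at 9m none beside 6.78%, at 12m 1 (Slc25a5) beside 11.7% and at 18m 1 (Slc25a4) beside 6.79%. After DEN they numbered 4 in 20 tests, with 7 at an unadjusted p under 0.05. At 5j 1 member was called (Slc25a20) beside 10.5% of probe sets, at 1m 2 (Slc25a5, Slc25a20) beside 16.2%, at 3m 1 (Slc25a4) beside 14.3%, at 9m none beside 6.99% and at 12m none beside 7.04%. Whether the fibrate did more or less after DEN was tested on the mean of the 5 shared times, where no member was called (0.0403% of probe sets, none of the 4 members at an unadjusted p under 0.05). The intervals of that difference were -0.52 to 0.42 for Slc25a4, -0.23 to 0.08 for Slc25a5, -0.13 to 0.22 for Slc25a20 and -0.11 to 0.18 for Slc25a1.

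DEN without the fibrate moved no member past the threshold by limma in 24 tests (1 at an unadjusted p under 0.05, Slc25a5 at 5j, -0.25 ± 0.12). Over all probe sets 0.307% were called at -8, 0.0403% at 5j, 0.00807% at 3m, and none (0%) at 1m, 9m or 12m, where 548, 458 and 332 had an unadjusted p under 0.05. Slc25a4 had 56.8, 50.3, 119.8, 71.9 and 81.3 in DEN livers at 3m against 109, 68.2, 106, 152 and 115 in controls, with overlap (-0.43 ± 0.37). At 9m it had 159.7, 144, 149, 124 and 117 in DEN livers against 112, 111, 106, 96.6 and 75.4 in controls, where every DEN liver was above every control (0.39 ± 0.37, adjusted p = 0.998). Slc25a5 gave -0.20 ± 0.12 at 1m and 0.13 ± 0.12 at 12m, Slc25a20 -0.27 ± 0.14 at 5j, and Slc25a1 -0.15 ± 0.12 at -8, its difference farthest from 0.

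No member was called in the groups labelled rev (28 tests over 7 contrasts by limma, 3 at an unadjusted p under 0.05, of Slc25a4 in 2 and Slc25a5 in 1). Without scaling Slc25a1 passed in DEN-CA 12mrev against DEN-CA 12m livers (0.77, adjusted p = 0.0278), where the median probe set was at 0.52. Slc25a4 had 167, 168, 170.2 and 118 in CA 18mrev livers against 443, 181 and 218 in control 18mrev livers, with every rev CA liver below every rev control (-0.67 ± 0.45, adjusted p = 0.696). Against the CA livers of 18m it was -0.99 ± 0.40, adjusted p = 0.0764, and -0.16 ± 0.23, adjusted p = 0.742, without the pair. The CA effect in rev less that at 18m was -1.82 ± 0.59, adjusted p = 0.0973, and -0.98 ± 0.34, adjusted p = 0.146, without it. The first passed without CA rat 4142, 4144 or 4145 (adjusted p 0.0244 to 0.0451), the second without rat 4145 or 4040 (0.0430 and 0.0414), and both with array weights (0.00798 and 0.0283), with rat 4150 in each of these fits. In DEN-CA 12mrev livers it had 247, 232, 153, 143 and 168 against 116, 78.2, 144, 142, 129 and 135 in DEN 12rev livers, with the lowest DEN-CA liver just under the highest DEN one (0.51 ± 0.36, adjusted p = 1.0). Slc25a5 had 3579, 5406, 5396, 4642 and 5113 in DEN-CA 12mrev livers against 4742, 5145, 5818, 7025 and 7163 in DEN-CA 12m livers (-0.30 ± 0.12, adjusted p = 0.0816), with overlap, and passed without rat 4106 (0.0333) and after quantile normalization (-0.17, adjusted p = 0.00410). Slc25a20 had 921, 915, 943 and 887 in CA 18mrev livers against 602, 1001 and 941 in control 18mrev livers (0.14 ± 0.17, adjusted p = 0.881).

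Of all probe sets, 0.734% were called in CA against control 18mrev livers, 0.121% in DEN-CA 12mrev against DEN 12rev livers and 0.00807% in DEN 12rev against control 12mrev livers. Against the groups still labelled without rev, 14.7% were called for CA (12.1% without the pair) and 12.8% for DEN-CA livers, and in the differences of effects 1.46% (1.26% without the pair) and 2.3%.

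The 6 CA livers labelled 18 were set against the 18m controls, with the unit of the first label unknown. There 3 members were called beside 23.2% of probe sets. Slc25a4 had 211 to 487 (median 281) in CA 18 livers against 91.6, 115, 142, 281 and 106 in 18m controls, with 1 control inside the CA range (0.97 ± 0.36, adjusted p = 0.0366), a call lost without any 1 of control rats 4036, 4038, 4039 and 4045 or CA rats 4153, 4155 and 4158 (adjusted p 0.0556 to 0.104), with an offset of 99 (0.0672) or without scaling (0.343). Slc25a5 had 7346 to 8793 (median 7889) in CA 18 livers against 4159.8, 5176, 5536, 4905 and 4991 in 18m controls, without overlap (0.68 ± 0.12, adjusted p = 2.28e-06, 1.60-fold). Slc25a20 had 814 to 1170.2 (median 1066) in CA 18 livers against 503, 865, 939, 543 and 757 in 18m controls, with overlap (0.51 ± 0.14, adjusted p = 0.00227). Without scaling they gave 0.29 (adjusted p = 0.401) and 0.14 (adjusted p = 0.788), where the median probe set was at -0.28. Slc25a1 gave 0.07 ± 0.11, adjusted p = 0.708.

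**Figure D4:**
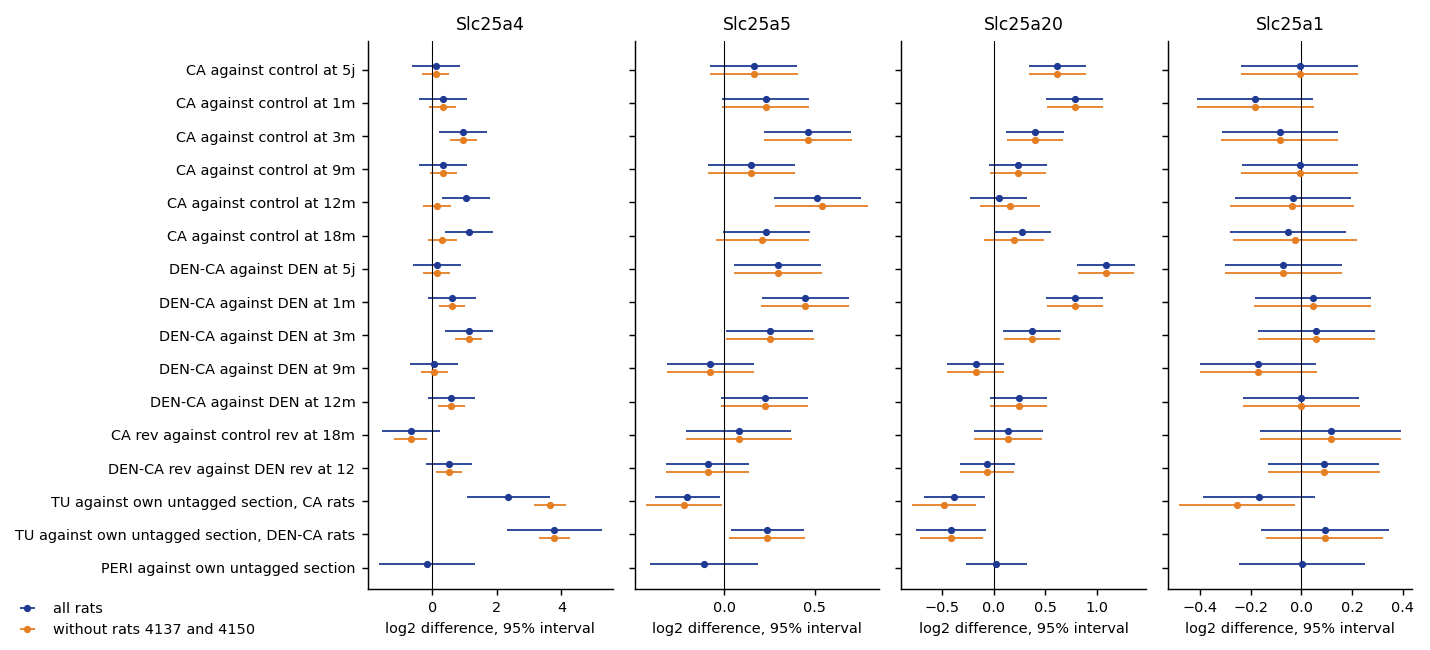
Log2 differences with 95% intervals for each member in 16 comparisons, with all rats (blue) and without rats 4137 and 4150 (orange), each panel on its own scale. TU differences of Slc25a4 are 3.64 and 3.78 without the pair, and Slc25a20 has its largest differences at 5j and 1m.

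Among other mitochondrial carriers more fell than rose under the fibrate on scaled arrays. Of 28 tested under CA on the mean of 6 times, 6 rose and 11 fell (5 and 11 without rats 4137 and 4150), with a median of -0.10, where 18.8% of 8733 tested genes rose, 22.6% fell and the median was -0.01. Among those that fell were Slc25a22 (-1.05 ± 0.08, adjusted p = 1.89e-24), a glutamate carrier, Slc25a25 (-1.46 ± 0.14, adjusted p = 1.15e-16), an ATP-Mg/phosphate carrier, Slc25a13 (-0.48 ± 0.06, adjusted p = 1.61e-11), the aspartate/glutamate carrier citrin, Slc25a15 (-0.52 ± 0.07, adjusted p = 2.01e-11), an ornithine carrier, and Slc25a45 (-0.71 ± 0.07, adjusted p = 1.21e-15). Risers were Slc25a39 (0.36 ± 0.06, adjusted p = 4.16e-08), a glutathione carrier, Slc25a11 (0.31 ± 0.05, adjusted p = 7.04e-08), the oxoglutarate carrier, and Slc25a3 (0.32 ± 0.06, adjusted p = 6.04e-07), the phosphate carrier that works beside the translocases. Without scaling none rose and 14 fell. After DEN 5 rose and 10 fell (median -0.09, with 21.1% of genes up and 16.3% down), and 5 rose and 9 fell in both arms. Slc25a38, a glycine carrier, fell by 0.29 on the log2 scale there. Without scaling 4 rose and 4 fell.

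In TU sections of DEN-CA rats 1 of these 28 rose and 6 fell, with a median of -0.05 (0.01 after quantile normalization), where 12.7% of 8325 genes rose and 17.8% fell. The carriers that fell were thus near the share of all genes. Those that fell included Slc25a22 (-0.81 ± 0.14, adjusted p = 0.000561), Slc25a30 (-1.19 ± 0.21, adjusted p = 0.000609), Slc25a10 (-1.18 ± 0.22, adjusted p = 0.000854), the dicarboxylate carrier, Slc25a13 (-0.95 ± 0.20, adjusted p = 0.00148), Mtch2 (-0.42) and Ucp2 (-0.44), an uncoupling protein homologue. The 1 that rose was Slc25a27 (0.37), and none of the 28 was above 0.40. In CA rats 1 fell, Slc25a10 (-0.89 ± 0.19, adjusted p = 0.0307), and without rats 4137 and 4150 1 rose and 8 fell, with Slc25a10 at -1.16 and Slc25a30 at -0.76 among them.

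**Figure D5:**
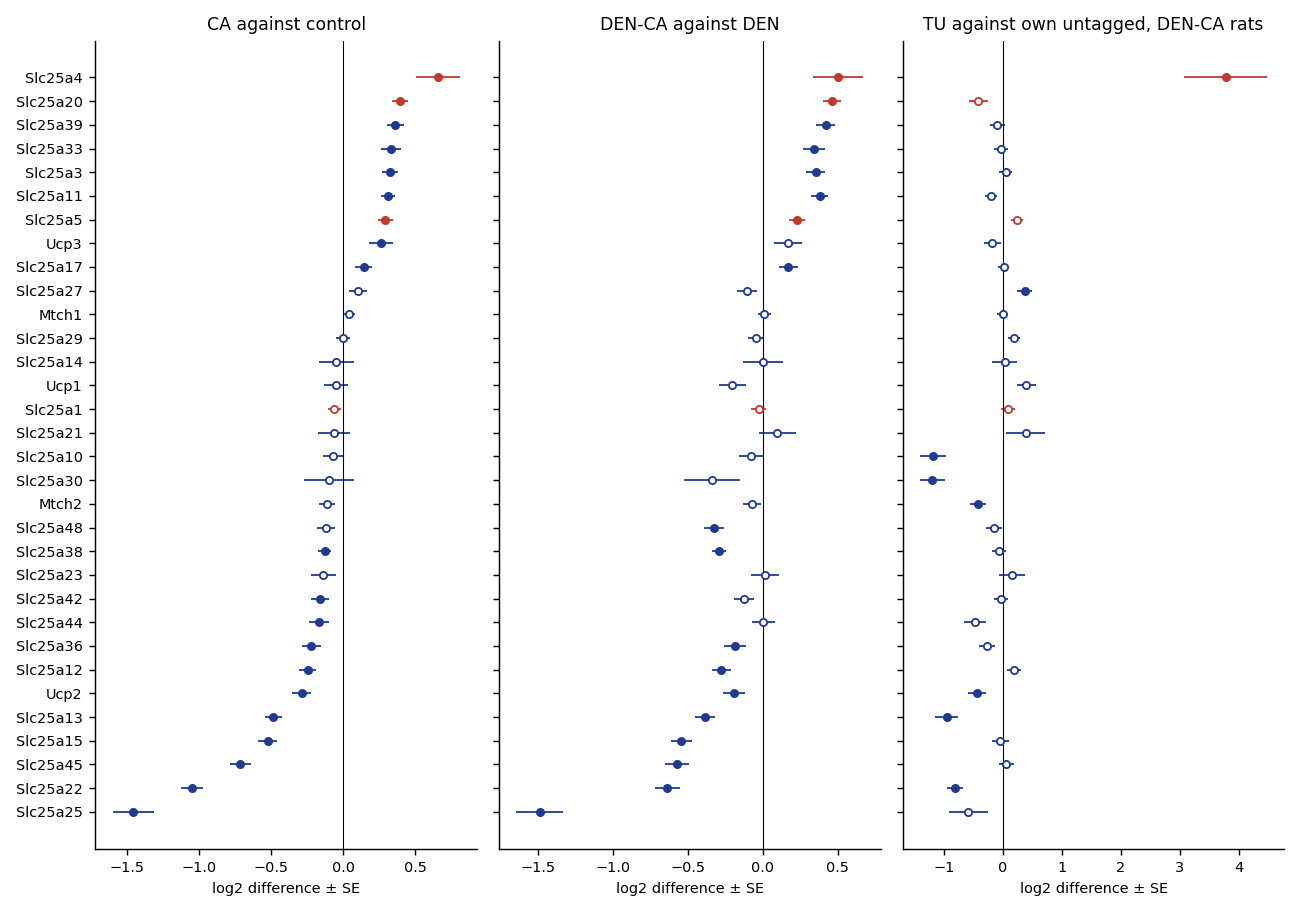
Log2 difference ± SE of the 4 members (red) and 28 other mitochondrial carriers (blue) on the mean over times under CA, after DEN and in TU sections of DEN-CA rats, ordered by the first, with filled points for an adjusted p under 0.05. In TU sections Slc25a4 stands at 3.78 and the 28 other carriers lie between -1.19 and 0.40.

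Most genes of oxidative phosphorylation rose in untagged liver, where 18.8% of all tested genes rose and 22.6% fell under CA, and 21.1% rose and 16.3% fell after DEN. Of 14 ATP synthase genes 13 rose and none fell under CA (median 0.30), and 11 rose and none fell after DEN, with Atp5f1b (0.42 ± 0.06, adjusted p = 2.46e-10), Atp5f1c (0.40 ± 0.06, adjusted p = 1.17e-09) and Atp5pf (0.46 ± 0.07, adjusted p = 1.10e-08) among them. Of 42 respiratory chain genes 34 rose in each arm and none fell, among them Cox4i1 (0.55 ± 0.05, adjusted p = 2.34e-18) and Uqcrc1 (0.49 ± 0.05, adjusted p = 4.54e-15). In TU sections of either arm no ATP synthase gene passed, though 1 did in each without rats 4137 and 4150, Atp5f1b at -0.35 in CA rats and Atp5po at 0.36 in DEN-CA rats. Of all tested genes 0.877% rose and 3.00% fell in TU sections of CA rats (8.17% and 11.6% without the pair). Respiratory chain genes that passed in TU sections were 5 lower and 0 higher in CA rats, and 3 lower and 1 higher in DEN-CA rats, with Ndufs7 at -0.57 in CA and -0.77 in DEN-CA rats. Without the pair 12 were lower in CA rats. The scaling moved these counts, with 12 higher and 2 lower and 4 ATP synthase genes higher in DEN-CA rats, and none passing in CA rats, after quantile normalization, and with 5 respiratory chain and 1 ATP synthase gene up under CA without scaling.

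Of 11 genes of the outer membrane and of nucleotide handling, 3 rose and 1 fell under CA, where 18.8% of all genes rose and 22.6% fell. They were the channels Vdac1 (0.35) and Vdac2 (0.43), through which ADP and ATP cross the outer membrane, Tspo (0.48), and Bcl2l1 (-0.31), an anti-apoptotic protein. In TU sections of DEN-CA rats, Nme4 (2.45 ± 0.40, adjusted p = 0.000446), the mitochondrial nucleoside diphosphate kinase, rose, and the adenylate kinase Ak4 (-0.99 ± 0.19, adjusted p = 0.00114) and Bcl2l1 (-0.67) fell, beside 29.6% of all probe sets called either way. Without scaling 1 of the 11 rose and 3 fell under CA. In TU sections of CA rats Nme4 gave 1.23 ± 0.35 (adjusted p = 0.058), and 1.75 (adjusted p = 1.44e-05) without the pair.

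Most genes of mitochondrial β-oxidation, the route that Slc25a20 feeds, rose under the fibrate, where 18.8% of all genes rose under CA and 21.1% after DEN. Of 15 such genes 12 rose and none fell in each arm (median 0.36 under CA), among them Eci1 (1.10 ± 0.08, adjusted p = 2.98e-26), Decr1 (0.79 ± 0.05, adjusted p = 4.73e-26) and Hadha (0.78 ± 0.06, adjusted p = 2.00e-21). In TU sections none rose, 3 fell in CA rats (8 without rats 4137 and 4150, none after quantile normalization) and 9 in DEN-CA rats (5 after quantile normalization), with Eci2 at -0.87 and Acadm at -0.48 in DEN-CA rats. Called there either way were 3.74% of all probe sets in CA rats (18.7% without the pair) and 29.6% in DEN-CA rats. Of 8 genes of the carnitine shuttle tested under CA, 4 rose and 2 fell (5 and 2 without the pair), with Cpt1b (2.02 ± 0.08, adjusted p = 1.78e-46), the muscle form of the palmitoyltransferase, and the acyltransferases Crot (0.98) and Crat (0.62) up and Cpt1a (-0.35), the liver form, down. In TU sections of DEN-CA rats none of 7 rose and 5 fell (median -0.82), among them Crat (-1.30), Cpt2 (-1.12) and the carnitine transporter Slc22a5 (-0.92). In CA rats 1 fell, Acsl1 (-0.49), and 5 did without the pair.

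Of 14 genes of citrate use and lipogenesis 8 rose and 1 fell under CA (9 and 1 without the pair), where 18.8% of all genes rose and 22.6% fell, with Me1 (2.22 ± 0.08, adjusted p = 6.44e-51), malic enzyme, Srebf1 (1.58 ± 0.13, adjusted p = 3.27e-21), Acaca (0.57) and Fasn (0.84), and after DEN 10 rose and 1 fell, where 21.1% of genes rose and 16.3% fell. In TU sections of DEN-CA rats Fasn rose (0.64) and Srebf1 (-0.68), Acaca (-0.34) and Me1 (-0.38) fell, and in CA rats Acss2 fell (-0.46), 1 of 6 that fell without the pair. Called there either way were 29.6% of all probe sets in DEN-CA rats and 3.74% in CA rats (18.7% without the pair). After quantile normalization 3 rose and 1 fell in DEN-CA rats and none passed in CA rats. Of 5 mitochondrial biogenesis genes, too few to set beside those shares, 3 rose under CA (2 without the pair), Sirt3 (0.65), Polg (0.50) and Tfam (0.16), and Polrmt fell (-0.12). In TU sections Polg rose in DEN-CA rats (0.38) and none passed in CA rats.

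The genes whose group means over 30 untagged groups were most like those of each member are named here as a description, with no claim of shared control. For Slc25a5 they were Cox8a (r = 0.96 for group means and 0.81 for deviations of single sections from them), Ndufa4 (0.95), Atp5f1c (0.94), Ecsit (0.93) and Atp5f1b (0.93), of which all but Ecsit encode respiratory chain or ATP synthase subunits. For Slc25a20 they were Ech1 (0.93), an enzyme of β-oxidation, Ephx2 (0.92), Pex19 (0.91), a peroxisome assembly factor, Psma4 (0.90) and Mcrip2 (0.90). For Slc25a4 the list began with Dpp7 (0.88) and S100a10 (0.87) and no mitochondrial energy gene was among its 5, and without rats 4137 and 4150 it began with Surf2 (0.85) and S100a10 (0.83). For Slc25a1 it began with Larp1 (0.74) and Nsdhl (0.73), a sterol synthesis enzyme. Most unlike were Atp2c1 for Slc25a4 (-0.82), Smad3 for Slc25a5 (-0.88) and Praf2 for Slc25a20 (-0.85). Deviations of 148 sections from their group means correlated at 0.50 between Slc25a5 and Slc25a20, 0.54 between Slc25a5 and Slc25a1 and 0.11 between the sisters (0.17 without the pair), sections that share an array and its scaling.

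Markers of other cells moved in some of these comparisons, and their part in the member differences was not tested. For muscle, where Slc25a4 is the main translocase, the summed signal of 8 markers was 161 to 439 in TU and 146 to 321 in the untagged sections of CA rats, and 205 to 385 in TU and 136 to 304 in the untagged sections of DEN-CA rats. The 8 markers had medians of 5.30 to 104 over all TU sections and 4.25 to 86.6 over all untagged ones, controls included, where the array median is 99.35. Ckm was the highest, Acta1 had 11.4 over TU and 5.70 over untagged sections, and no muscle marker was at 0 in the median section. Of the 2 muscle markers that passed the filter, Ckm, muscle creatine kinase, rose in TU sections of DEN-CA rats (0.54) and neither passed elsewhere. Hepatocyte markers, 7 in all, summed to 48300.3 to 79908 in TU and 60452 to 117387 in untagged sections of CA rats, and to 45746 to 93929 in TU and 39882 to 117577 in untagged sections of DEN-CA rats. Of them 4 fell after DEN on the mean over times, 1 fell in TU sections of DEN-CA rats and none passed under CA or in TU sections of CA rats (without the pair 1 rose under CA and 3 fell in TU sections of CA rats).

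Marker counts here and above stand beside 40.2% of all probe sets called either way under CA and 35.1% after DEN on the mean over times. In TU sections 3.74% were called in CA rats (18.7% without the pair) and 29.6% in DEN-CA rats (32.3%). Several of the marker counts are near these shares. Of 6 macrophage markers all fell under the fibrate with and without DEN, 2 fell in TU sections of CA rats (3 without the pair) and 4 in those of DEN-CA rats, where their sum was 1941 to 6782 in TU and 3538 to 8569 in untagged sections. Of 8 stellate cell and fibroblast markers 3 fell under the fibrate with and without DEN, none passed in TU sections of CA rats (3 rose without the pair), and 3 rose and 1 fell in those of DEN-CA rats, where they summed to 1462 to 4962 in TU and 1498 to 2505 in untagged sections. Of 3 endothelial markers 2 fell under CA and 1 fell in TU sections of DEN-CA rats and, without the pair, of CA rats. Of cholangiocyte markers 1 of 3 rose in each arm under the fibrate and none of 2 passed in TU sections (2 rose in CA and 1 in DEN-CA rats without the pair), and their sum in DEN-CA rats was 562 to 915 in TU and 332 to 643 in untagged sections. Most of that sum was Epcam, with a median of 571 over all TU and 231 over all untagged sections, controls included. Against the untagged section of the same rat, Epcam gave 0.46 in CA and 0.41 in DEN-CA rats (adjusted p 0.0637 and 0.0530 by limma). In untagged liver it rose by 1.00 under CA and 1.01 after DEN on the mean over times. By the same pooled medians Spp1 (58.9 and 46.8) was also higher in TU, while Krt19 (19.7 and 26.6) and Krt7 (10.5 and 11.6) were lower. Of lymphocyte markers 1 of 4 fell in each arm and none of 2 passed in TU sections, and of 2 erythroid markers 1 fell under CA and both fell in TU sections of DEN-CA rats. At 5j, when Slc25a20 rose, both erythroid markers fell in each arm, Hbb, a globin gene, by 1.62 under CA and 1.48 after DEN and Alas2, of erythroid heme synthesis, by 0.94 and 0.97 on the log2 scale (adjusted p 0.0205 or less by limma). Neither passed at 1m. Macrophage markers that fell were 1 of 6 at 5j in each arm, and 6 under CA and none after DEN at 1m. Called over all probe sets were 11.2% at 5j and 14.4% at 1m under CA, and 10.5% and 16.2% after DEN. Of 2 pancreatic acinar markers 1 rose in TU sections of DEN-CA rats, 1 of which had an acinar sum of 13443 while the untagged sections of those rats had 75.7 to 174. Of 7 proliferation genes 1, Cdk1, rose in TU sections of DEN-CA rats (0.62) and none passed in TU sections of CA rats or under the fibrate, apart from 1 of 6 that fell under CA without the pair.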

How the data were processed

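Total RNA of liver sections was hybridized to Affymetrix arrays, 176 in all. The authors deposited linear signal intensities for 15922 probe sets, made with MAS5 per the submitters' processing notes. Its version, scaling target and settings are not given in the sources used here. Array medians ran from 25.35 to 187.25, so each array was scaled to the median of medians, 99.35, 25 was added and log2 taken. Levels are therefore relative to the median probe set, and folds of dim genes are understated.

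Probe sets above their array's 40th percentile on at least 3 arrays were tested with limma 3.58.1 in R 4.3.3 (lmFit, eBayes with a trend, two-sided, Benjamini-Hochberg over all tested probe sets, threshold 0.05). The 148 untagged sections entered 1 fit with a mean for each of 30 groups (12393 probe sets, 118 residual degrees of freedom). TU and PERI sections were tested as differences from the untagged section of the same rat, which the shared rat number pairs, with TU sections of 1 rat averaged (11566 and 10174 probe sets). Per-rat deviations of TU and untagged sections correlated at -0.59 to 0.46 (median 0.21).

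Sister ratios were tested by exact permutation in Python 3.11.15. Probe sets were named through Entrez identifiers and GRCr8 tables. A gene list took each gene's brightest probe set. No arrays were identical, and log2 values of arrays in 1 group correlated at 0.93 or more (median 0.97). The number of arrays limits the precision, and the smallest group had 3 rats. On simulated data with 100 probe sets changed at each size, 86% of changes of 1 and 30% of changes of 0.5 log2 units were recovered at 18m between 5 CA and 5 control rats, and 91% and 33% in TU sections of DEN-CA rats. With so few changed, the adjusted threshold was stricter than in the data, where 6.79% and 29.6% of probe sets were called. These rates therefore do not carry over to comparisons with many calls.

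Named were all members, up to 8 other carriers that passed in the CA, DEN-CA and TU comparisons, up to 4 genes of each other list by smallest p, and genes most like and unlike each member. Genes named from fits without rats 4137 and 4150 were chosen after their values were seen. The members and lists were chosen with earlier results of these data known. Alternatives were other offsets, normalizations, filters and weights, the B suffix as a covariate, fits of only the groups compared, unpaired TU tests and leaving out each rat. Leaving out rats 4137 and 4150, the 12m less 5j contrast of DEN-CA, the 50-gene measure and the promoter motifs were added after seeing the data.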

Additional observations from a re-analysis of the deposited data

Results flagged for a closer look

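In each group of 4 to 10 rats the highest and the lowest value were set against the gap to the nearest other rat. Of 128 groups of values tested, 17 had such a value, where chance gives about 1 in 20. Causes were not tested.

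For Slc25a4, rat 4137 of CA 12m had 3356 against 86.6 to 144 in the other CA 12m livers, and rat 4150 of CA 18m had 3600 against 134 to 209 in the other CA 18m livers. Low values were those of rat 4133 of CA 9m (75.91, others 143 to 169), rat 4151 of CA 18mrev (117.6, others 167 to 170.2), rat 4080 of the DEN group labelled 12rev (78.16, others 116 to 144) and rat 4028 of the 12m controls (88.75, others 107 to 114). The difference of TU from untagged was -4.44 in CA rat 4137 against 0.12 to 4.57 in the other CA rats, and 2.35 in DEN-CA rat 4107 against 3.64 to 4.25 in the other DEN-CA rats. The difference of PERI from untagged was -4.10 in rat 4137 against -0.18 to 1.33 in the other 4 rats.

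For Slc25a5, rat 4117 of CA 5j was high (8730, others 6637 to 7159). Low values were those of rat 4122 of CA 1m (6014, others 7133 to 7583), rat 4149 of CA 18mrev (5866, others 6652 to 6727), rat 4090 of DEN-CA 1m (5380, others 7508 to 7700.2) and rat 4062 of DEN 1m (4060, others 5381 to 5729). For Slc25a20, rat 4150 of CA 18m had 1077 (others 767 to 829), so this rat was high in both genes, and the TU difference of DEN-CA rat 4107 was -1.53 (others -0.41 to 0.05). For Slc25a1, rat 4073 of DEN 12m had 1810 (others 1271 to 1354).

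The fibrate difference of Slc25a20 after DEN at 12m less that at 5j was -0.847 on the log2 scale (adjusted p = 0.00869 by limma), in a contrast chosen after the values were seen. The TU difference of Slc25a5 was above 0 in 7 of 7 DEN-CA rats and below 0 in 9 of 9 CA rats, 0.4411 apart, and did not pass the test over all probe sets (adjusted p = 0.19 by limma). The rats of these arms differ in time label as well, so arm and time cannot be told apart.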

How the results depend on the processing

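Each comparison was recomputed under the alternatives that apply to it (4 for the sister ratio, 6 for PERI, 9 or 10 for untagged and 11 or 12 for TU comparisons), 1 choice at a time. Of 235 recomputed values that answer a comparison, 208 kept their direction and side of the threshold (counts, within 1.5 times), 7 lost and 11 gained the threshold and 9 counts moved by more. Of 924 values of single members in the other comparisons, 877 kept both, 18 lost and 25 gained the threshold and 4 changed sign. Over the fits that left out 1 rat each, 734 of 756 and 1495 of 1542 kept both. The cause of the changes named here was not tested.

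Without scaling of the arrays, which moved the median of all genes by -0.18 under CA, 0.12 after DEN, 0.28 in TU sections of CA rats and -0.08 in those of DEN-CA rats, the CA means were 0.068 for Slc25a5, 0.18 for Slc25a20 and -0.28 for Slc25a1, the CA 3m values -0.50 and -0.52 for the first and second of these, and Slc25a5 in 18m against 5j controls 0.017. Called probe sets were then 2393 (4346 with scaling) on the DEN-CA mean and 1450 (3418) in TU sections of DEN-CA rats. Quantile normalization gave Slc25a5 0.18 in DEN-CA livers at 9m, Slc25a4 2.50 in TU sections of CA rats, 0.29 for both Slc25a5 and Slc25a1 in those of DEN-CA rats, and 112 calls (432) in TU sections of CA rats.

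For Slc25a4 in TU sections of CA rats, no filter gave 2.35 with 1 call over all probe sets, CA rats alone 2.35 with 1 call, leaving out rats of rev groups 2.18 with 1 call, and 1 TU section per rat 2.22 with 0 calls by limma (1949 at an unadjusted p under 0.05). Leaving out rats of rev groups gave Slc25a20 -0.49 in TU sections of DEN-CA rats. Array weights gave Slc25a20 -0.44 in TU sections of CA rats (2813 calls) and -0.38 in those of DEN-CA rats, with 0.25 for Slc25a5. With the filter at the 70th percentile the last 2 were -0.41 and 0.24. Without rats 4137 and 4150 Slc25a20 was at -0.48 and -0.41, with 2162 calls in CA rats.

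Leaving out 1 rat at a time, TU values ran from 2.08 to 3.20 for Slc25a4 and -0.49 to -0.32 for Slc25a20 in CA rats (1 to 2501 calls), and from 0.18 to 0.28 for Slc25a5 and -0.49 to -0.23 for Slc25a20 in DEN-CA rats. The sister ratio on the DEN-CA mean ran from 0.24 to 0.31 and passed without rat 4087 (adjusted p = 0.0465). With no replicate block, so without pairing TU to the untagged section of the same rat, Slc25a4 gave 2.35 (adjusted p = 0.0233) in CA and 3.78 (adjusted p = 7.28e-05) in DEN-CA rats, calls were 366 and 2839, and no member's call changed. Other probe sets of the translocases could not be tried, as each had 1 on the array. Dim probe sets limit Slc25a4 in untagged liver, where its signal lay near the array median.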

Other observations

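Over the 16 rats with a TU section, the TU differences most like those of each member were ranked as a description, with rats of both arms pooled. For Slc25a4, whose differences in this ranking include rats 4137 and 4150, the closest were Rpl21 (r = 0.92), a ribosomal protein gene, and Ica1 (0.91). Rat 4137 had -4.44 and rat 4150 0.12 in Slc25a4, against 2.11 to 4.57 in the other rats, so these r values rest largely on that pair. The ranking was not made without it. For Slc25a5 they included Mrps22 (0.92), of the mitochondrial ribosome, and the ATP synthase genes Atp5f1c (0.91) and Atp5mc3 (0.91), and for Slc25a20 Adh5 (0.92) and Ech1 (0.91), an enzyme of β-oxidation.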
